A study of Drosophila melanogaster with 11 samples.

Results

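The 32 genes described here encode subunits of the mitochondrial respiratory chain beyond complex I and of the ATP synthase. They are nuclear genes chosen by name from a fixed list: 4 for complex II, 7 for complex III, 1 for cytochrome c, 8 for complex IV and 12 for the ATP synthase. All 32 were found among the 15603 genes of each of 3 deposited tables, 25 under the listed symbol and 7 under another symbol of the same gene. Genes are called by the listed symbol, with the current name in parentheses where it says more, except that FBgn0010612 is called by its current name, ATPsynG. The value given throughout is FPKM, a number of sequenced fragments scaled to transcript length and to the size of the library, so that levels can be set side by side between genes.

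RNA was sequenced in 11 libraries, 1 per condition, each from 15 pooled animals. The study asked how flies respond when mitochondria are stressed. In 3 thorax libraries, adult flies carried the tubulinGeneSwitch driver, which the drug RU486 switches on. The driver was crossed to w1118 (control), to UAS-dOTC, a deletion form of ornithine transcarbamylase that misfolds in the mitochondrial matrix, or to ND75 RNAi, which knocks down a subunit of complex I. All 3 received 200 µM RU486 for 24 hr at day 7 of adult life, so the drug was shared by control and treated flies. The study's figure legend names a daughterless driver for these flies where the sample labels name tubulin.

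The 8 fat body libraries came from DaGeneSwitch x UAS-dOTC animals, 4 from L3 larvae and 4 from adults of day 7. At each stage the animals were wild type for PGAM5 or PGAM5 null on both sides of the cross, each without RU486 and with 200 µM RU486. Adults had received the drug only as larvae. PGAM5 is a mitochondrial phosphatase. Every fat body animal carried the dOTC transgene and none received RU486 without it, so the drug and dOTC cannot be told apart there. Daughterless drives expression widely, so the transgene was not limited to fat body. In the thorax, control and treated flies came from different crosses, and genetic background and transgene cannot be told apart.

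In the respiratory chain, complex II oxidizes succinate and passes electrons to ubiquinone, complex III passes them to cytochrome c, and complex IV passes them to oxygen. Complexes III and IV pump protons across the inner membrane, and the ATP synthase uses the return flow to make ATP, with its F1 head in the matrix and its stalk and ring in the membrane. Complexes III and IV and the ATP synthase also hold subunits encoded by mitochondrial DNA, and insect flight muscle is among the tissues with the most mitochondria.

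The libraries rest on an estimated 2990000 to 9060000 fragments each. Genotype marks matched the labels: ND75 was at 572 FPKM in control thorax and at 53.8 with ND75 RNAi, and Pgam5 was at 10.1 to 16.8 FPKM in the wild-type fat body libraries and at 0 to 0.841 in the PGAM5 null ones. The header of the adult fat body table reads larval, but the yolk protein gene Yp1 was at 25125 to 41899 FPKM there and the larval storage protein gene Lsp2 at 6.35 to 27.1, against 37072 to 47148 for Lsp2 in the larval table. The 13 protein genes of mitochondrial DNA were listed at 0 in all 11 libraries, so the subunits they encode could not be described. The 12 muscle markers summed to 15265 FPKM in the control thorax and 546 in wild-type adult fat body without RU486. Marker genes of other tissues were high in several libraries, and the control thorax held 17320 FPKM of 4 adult fat body markers, against 62221 in those adults. In larvae without RU486, the 6 salivary glue genes summed to 135167 FPKM in wild type and 168872 in PGAM5 null, beside 147466 and 147412 for the 6 larval fat body markers. These were dissected as fat body, and fewer cells of a type and less RNA per cell cannot be told apart in such pooled tissue.

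The subunit genes were among the most abundant transcripts of the thorax. Together they held 12.9% of all FPKM in the control thorax, 10.97% with dOTC and 15.7% with ND75 RNAi, and their median level was 2225, 1857 and 2619 FPKM in the same order. In wild-type fat body without RU486 their share was 1.97% in adults and 0.669% in larvae, with medians of 439 and 203 FPKM. The order thorax, adult fat body, larval fat body held for the median in every genotype and treatment, since the 4 adult medians lay between 439 and 514 FPKM and the 4 larval ones between 175 and 351. The tables were made separately, so these levels are set side by side and were not tested.

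**Figure D1:**
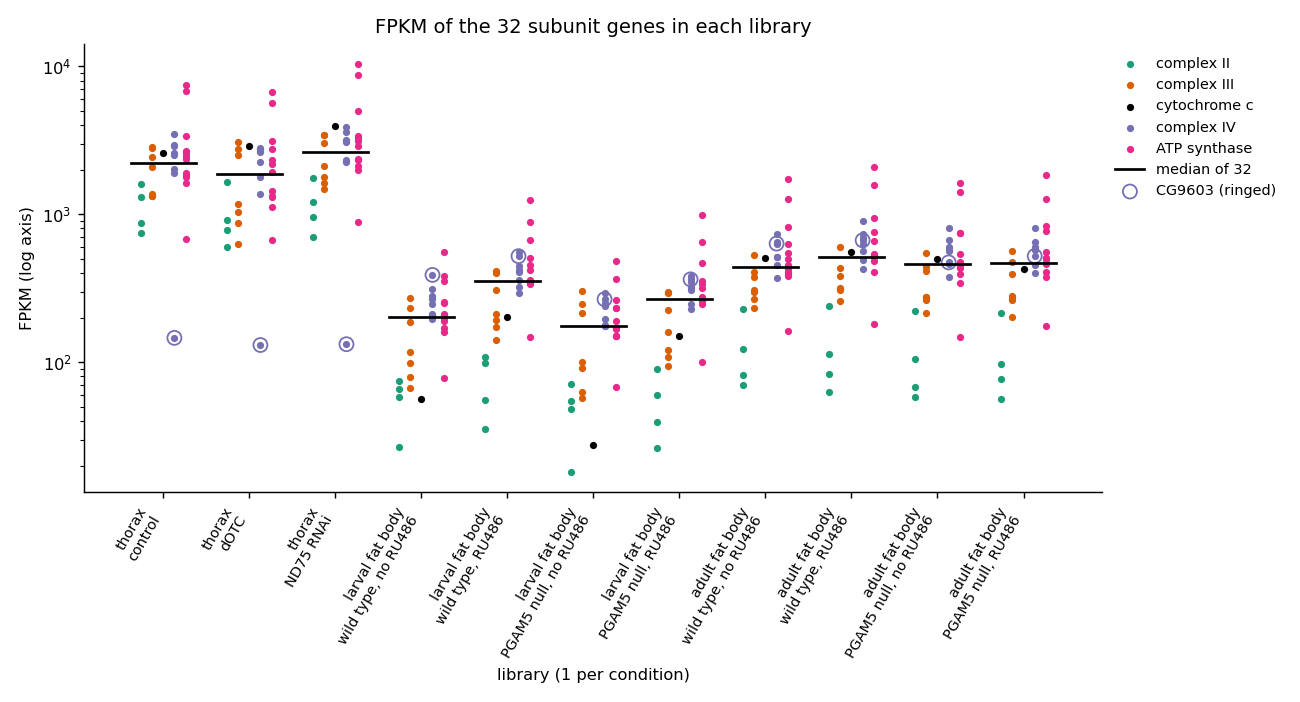
FPKM on a log axis for the 32 subunit genes in each of the 11 libraries, 1 point per gene coloured by complex, with a bar at the median and a ring around CG9603. The thorax medians lie between 1857 and 2619 FPKM, above the adult fat body (439 to 514) and larval fat body (175 to 351), and CG9603 alone runs the other way.

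The most abundant subunit genes belonged to the ATP synthase. ATPsyn-beta (FBgn0010217), the catalytic F1 subunit, stood at 7471 FPKM in control thorax, 6695 with dOTC and 8749 with ND75 RNAi. CG1746 (FBgn0039830, ATPsynC), whose product forms the proton-carrying ring, stood at 6778, 5625 and 10285 FPKM in the same libraries. These genes held the first places in all 3 thorax libraries, and CG1746 was the highest of the 32 in every fat body library, from 482 to 2070 FPKM. F1 alpha, encoded by blw (FBgn0011211), sits in equal number with beta in the enzyme, but its transcript was lower in all 11 libraries. The ratio of beta to alpha was 2.21 in control thorax, 3.46 with dOTC and 1.76 with ND75 RNAi, and it ran from 1.53 to 1.90 in fat body. The dOTC thorax lay outside the range of the other 10 libraries, and blw was at 1933 FPKM there against 3383 in the control and 4971 with ND75 RNAi.

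Complex II genes were the lowest as a group. Scs-fp (FBgn0261439, SdhA), the flavoprotein that oxidizes succinate, was at 868 FPKM in control thorax, 70.1 in adult fat body and 26.6 in larval fat body, wild type without RU486 in both. The other 3, SdhB with its iron-sulfur clusters and the membrane anchors CG6666 (SdhC) and CG10219 (SdhD), ran from 746 to 1592 FPKM in control thorax and from 58.6 to 74.1 in those larvae. All 4 differed more between thorax and adult fat body than the median subunit gene, by ratios of 6.94 to 12.4 with a median of 9.82. The corresponding median was 5.74 for complex III, 4.64 for complex IV and 4.29 for the ATP synthase.

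Between adult and larval fat body, wild type without RU486, the adult value was higher for all 32 genes, by a median ratio of 2.32. Cyt-c-p (FBgn0000409), the electron carrier cytochrome c, gave the largest ratio, 8.99, at 507 FPKM in adults and 56.4 in larvae. The next largest was 4.002 for CG4769 (Cyt-c1), cytochrome c1 of complex III. The smallest were 1.39 for ox, a small subunit of complex III, and 1.40 for CG4692, subunit f of the ATP synthase.

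One gene reversed the order of the tissues. CG9603 (FBgn0040529, COX7A), subunit 7A of cytochrome c oxidase, was the lowest of the 32 in all 3 thorax libraries, at 146, 131 and 132 FPKM. In fat body it was at 266 to 520 FPKM in larvae and at 472 to 666 in adults. No thorax value overlapped the fat body range. Its ratio of control thorax to adult fat body was 0.231, where the other 31 genes ran from 3.81 to 12.4. A related gene outside the list, CG34172 (COX7AL2), showed the opposite levels: 2573, 2478 and 2919 FPKM in the 3 thorax libraries, at most 2.80 in larvae and 2.46 to 36.5 in adult fat body. CG34172 made up 94.6% to 95.7% of the FPKM of the pair in thorax and at most 6.55% in fat body. Added together, the pair reached 2719 FPKM in control thorax, close to the 1911 to 3493 of the other 7 complex IV genes. In larvae with RU486, CG34172 was listed at 0 in both genotypes. Within adult fat body, CG34172 was higher in the PGAM5 null libraries, at 30.5 and 36.5 FPKM, than in wild type, at 2.46 and 9.35. The 12 muscle markers summed to 1126 and 958 FPKM in the same PGAM5 null libraries and to 546 and 536 in wild type, and their part in that difference was not tested. CG34172 was singled out after its values were seen.

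**Figure D2:**
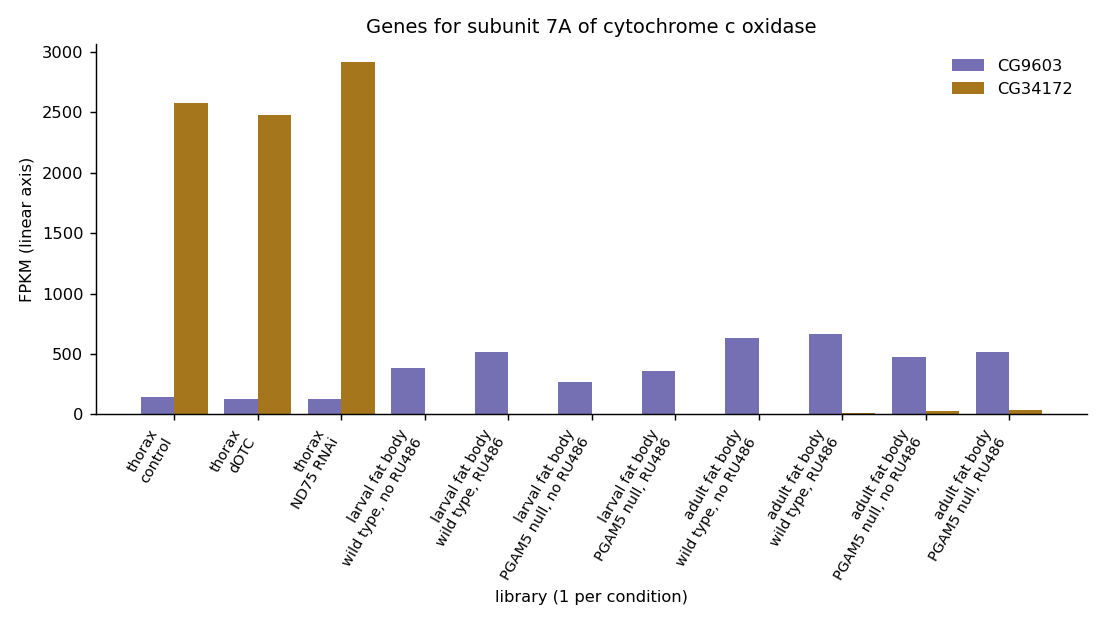
FPKM on a linear axis of the subunit 7A genes CG9603 and CG34172 in each of the 11 libraries, 1 bar per gene and library. CG34172 stands at 2478 to 2919 FPKM in thorax and at 36.5 or less in fat body, and CG9603 at 131 to 146 in thorax and 266 to 666 in fat body.

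In the thorax the question was how 2 kinds of mitochondrial stress, a misfolded matrix protein and loss of a complex I subunit, moved these genes. With dOTC, 24 of the 32 were lower than in the control and 8 were higher. With ND75 RNAi, 29 were higher and 3 were lower. Of all genes with at least 10 FPKM in the control, 53.3% were higher with dOTC and 28.5% with ND75 RNAi. The shifts were small: the median log2 ratio, taken with 1 FPKM added to each value, was −0.17 with dOTC and 0.27 with ND75 RNAi, against 0.03 and −0.19 for the 4308 genes with at least 10 FPKM in the control. All 32 genes passed that minimum here and in each of the other comparisons. Both comparisons used the same control library, so their opposite directions are not independent of each other. There is no second library of any condition. Each ratio therefore carries only a 95% interval for counting error, from estimated fragments, and none was tested against the spread between animals.

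**Figure D3:**
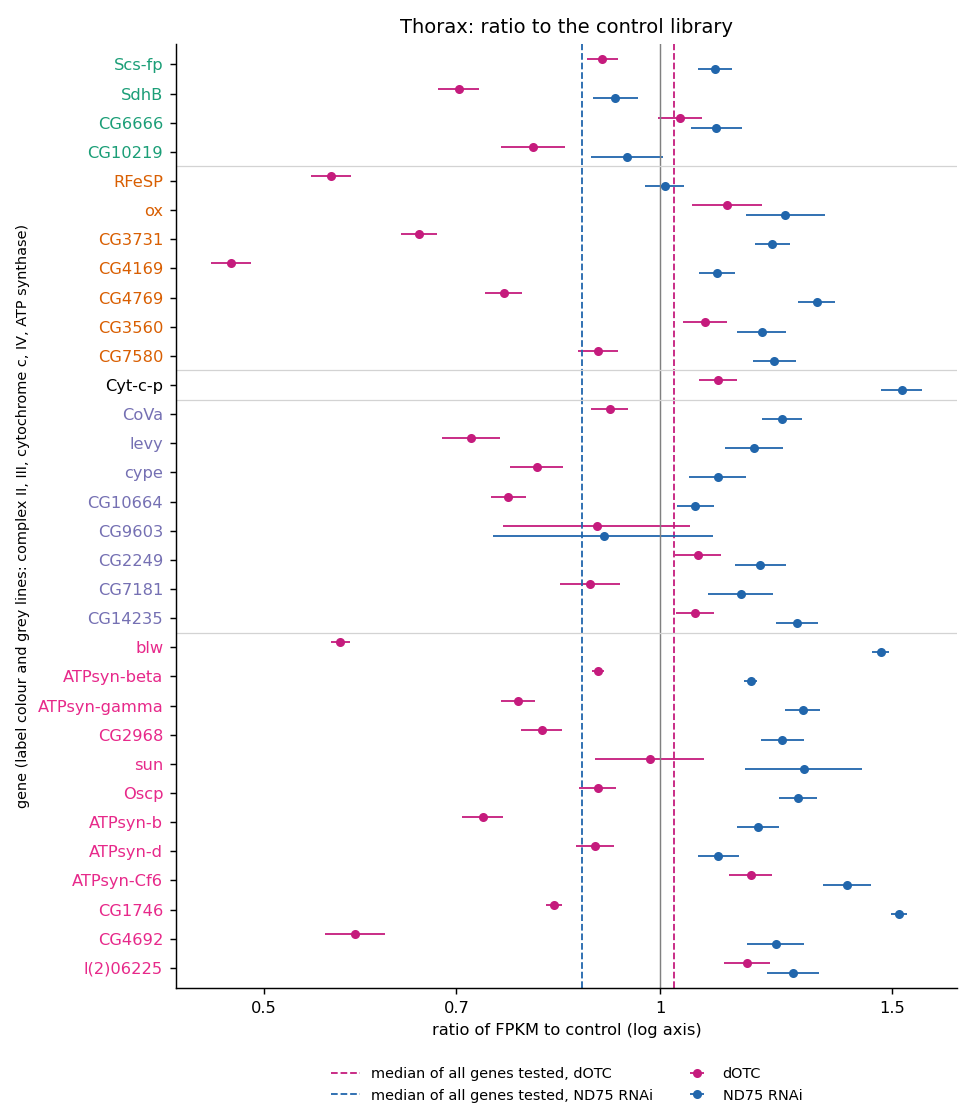
Ratio of FPKM to the control thorax on a log axis for each of the 32 genes, with 95% intervals for counting error, for dOTC and for ND75 RNAi; dashed lines mark the median ratio of all 4308 genes tested (1.02 and 0.871). The ND75 RNAi point lies to the right of the dOTC point for all 32 genes, which share 1 control library.

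The lowest ratios with dOTC were those of genes of complex III and the ATP synthase. CG4169 (FBgn0250814, UQCR-C2), core protein 2 of complex III, was at 1331 FPKM in the control, 629 with dOTC and 1469 with ND75 RNAi. Its dOTC ratio of 0.472 (95% interval 0.456 to 0.489) was the only one of the 32 at or below 0.5, a fold at which 6.66% of all genes tested lay. RFeSP, the Rieske iron-sulfur protein that accepts electrons from ubiquinol, was at 2098, 1179 and 2114 FPKM in the same order. blw, F1 alpha, followed with a ratio of 0.571 (0.562 to 0.581), and CG4692, subunit f, with 0.586 (0.557 to 0.618). With CG3731 (UQCR-C1), core protein 1, at 0.656, these made 5 genes at least 1.5-fold lower, where 11.7% of all genes tested lay. None of the 32 was 1.5-fold higher, against 11.1% of all genes, and none was 3-fold higher, against 1.02%.

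Within complex III, the 4 core and redox subunits (CG3731, CG4169, CG4769 and RFeSP) had dOTC ratios of 0.472 to 0.760. The 3 small subunits (ox, CG3560 and CG7580) had ratios of 0.896 to 1.12, with no overlap. This split was not planned. The 2 ranges were also apart in untreated PGAM5 null larvae and adults. With RU486 in larvae of both genotypes they were apart in the reverse order. They overlapped with ND75 RNAi and with RU486 in adults. The highest dOTC ratios of all were 1.17 for ATPsyn-Cf6, coupling factor 6, 1.16 for ATPsynG (FBgn0010612), subunit g, and 1.12 for ox. Across the 32 genes, the dOTC log2 ratio went with transcript length, with Spearman's rho of −0.53 and Pearson's r of −0.51, longer transcripts having the lower ratios. Across 1368 genes with 1 annotated transcript it was −0.04. The 32 points come from the same pair of libraries and their lengths from a later annotation, and the correlation is a description only. In the other comparisons rho across the 32 genes was −0.08 with ND75 RNAi, 0.36 and 0.41 with RU486 in wild-type and PGAM5 null larvae, −0.10 and −0.22 in adults, and −0.33 and −0.36 for untreated PGAM5 null larvae and adults. Across all tested genes with 1 annotated transcript it was 0.098, 0.16 and 0.21, 0.03 and −0.05, and −0.005 and 0.007, in the same order.

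Complex IV, which reduces oxygen, had a median log2 ratio of −0.17 with dOTC, against −0.40 for complex III, −0.23 for complex II and −0.22 for the ATP synthase. Its lowest ratios were 0.718 for levy, subunit 6A, 0.767 for CG10664 (COX4), subunit 4, and 0.805 for cype, subunit 6C. CG7181 (COX8), subunit 8, and CoVa, subunit 5A, were at 0.884 and 0.915, and CG14235 (COX6B) and CG2249 (COX7C), subunits 6B and 7C, at 1.06 and 1.07. CoVa, for example, stood at 2889 FPKM in the control, 2644 with dOTC and 3576 with ND75 RNAi. Of the ATP synthase stalk, ATPsyn-b and ATPsyn-d, subunits b and d, had dOTC ratios of 0.733 and 0.892 and ND75 RNAi ratios of 1.19 and 1.11.

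With ND75 RNAi every gene but CG9603 (0.906), SdhB (0.924) and CG10219 (0.944) was higher than in the control. Cyt-c-p was at 2592 FPKM in the control, 2867 with dOTC and 3952 with ND75 RNAi, a ratio of 1.52 (1.47 to 1.58) for the last. CG1746 gave 1.52 (1.497 to 1.538) and blw 1.47 (1.45 to 1.49). The first 2 were the only genes at least 1.5-fold higher, where 2.83% of all genes tested lay. None was 1.5-fold lower, against 18.5% of all genes, none was at or below 0.5, against 8.64%, and none was 3-fold higher, against 0.255%. All 32 lay above the ratio of the median gene, 0.871. By complex, the median log2 ratio was 0.34 for the ATP synthase, 0.28 for complex III, 0.22 for complex IV and 0.03 for complex II.

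Counting error was smaller than most of these shifts. With dOTC the interval lay below 1 for 22 genes and above 1 for 7, and with ND75 RNAi it lay above 1 for 28 and below 1 for 1. Of the 32 genes, 21 were lower with dOTC and higher with ND75 RNAi, 8 were higher in both and 3 were lower in both. These interval and direction counts were not made across all genes, so it is not known whether they are particular to the 32. Muscle markers also changed in these libraries, but not all in 1 direction. The 12 muscle markers, contractile protein genes such as Mhc and Act88F, summed to 15265 FPKM in the control, 11918 with dOTC and 25568 with ND75 RNAi, none of them at 0. With ND75 RNAi 8 of the 12 were at least 1.5-fold higher, and with dOTC 4 of the 12 were at least 1.5-fold lower. The median log2 ratio of the 12 was −0.09 with dOTC, where 3 were higher. It was 0.61 with ND75 RNAi, where 11 were higher. The 8 gut markers summed to 1307, 249 and 94.7 FPKM in the same order and the 7 ovary markers to 285, 5.21 and 13.3. Their part in the shifts of the subunit genes was not tested.

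Related genes outside the list were counted in the same way. Of 34 nuclear complex I genes tested, the median log2 ratio was −0.06 with dOTC, with 1 gene at least 1.5-fold higher and 1 lower, and 0.21 with ND75 RNAi, with 1 higher and 1 lower, the last being the knocked-down ND75 itself. ND75 was at 375 FPKM with dOTC. Of 13 TCA cycle enzymes tested, 4 were at least 1.5-fold lower with dOTC, with a median of −0.48, and 1 was higher with ND75 RNAi, with a median of 0.41. Citrate synthase (kdn), which opens the cycle, went from 1303 to 608 FPKM with dOTC and to 1945 with ND75 RNAi. sesB, which exchanges ADP and ATP across the inner membrane, was at 5938, 6111 and 8455 FPKM. The tested regulators of respiratory genes, TFAM and ewg, were within 1.5-fold of the control in both.

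In larval fat body the question was what RU486-induced dOTC did with and without PGAM5. The subunit genes were higher with RU486 in both genotypes. In wild-type larvae 31 of 32 were higher, and the median log2 ratio was 0.79, against −0.48 for the 5225 genes tested. In PGAM5 null larvae 30 of 32 were higher, with a median of 0.53 against −0.34 for 4828 genes. Among all genes tested, 23.4% were higher in wild type and 28.0% in PGAM5 null. All 32 lay above the ratio of the median gene in both genotypes, 0.707 in wild type and 0.782 in PGAM5 null. The share of all FPKM held by the 32 genes went from 0.669% to 1.44% in wild type and from 0.521% to 1.04% in PGAM5 null.

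**Figure D4:**
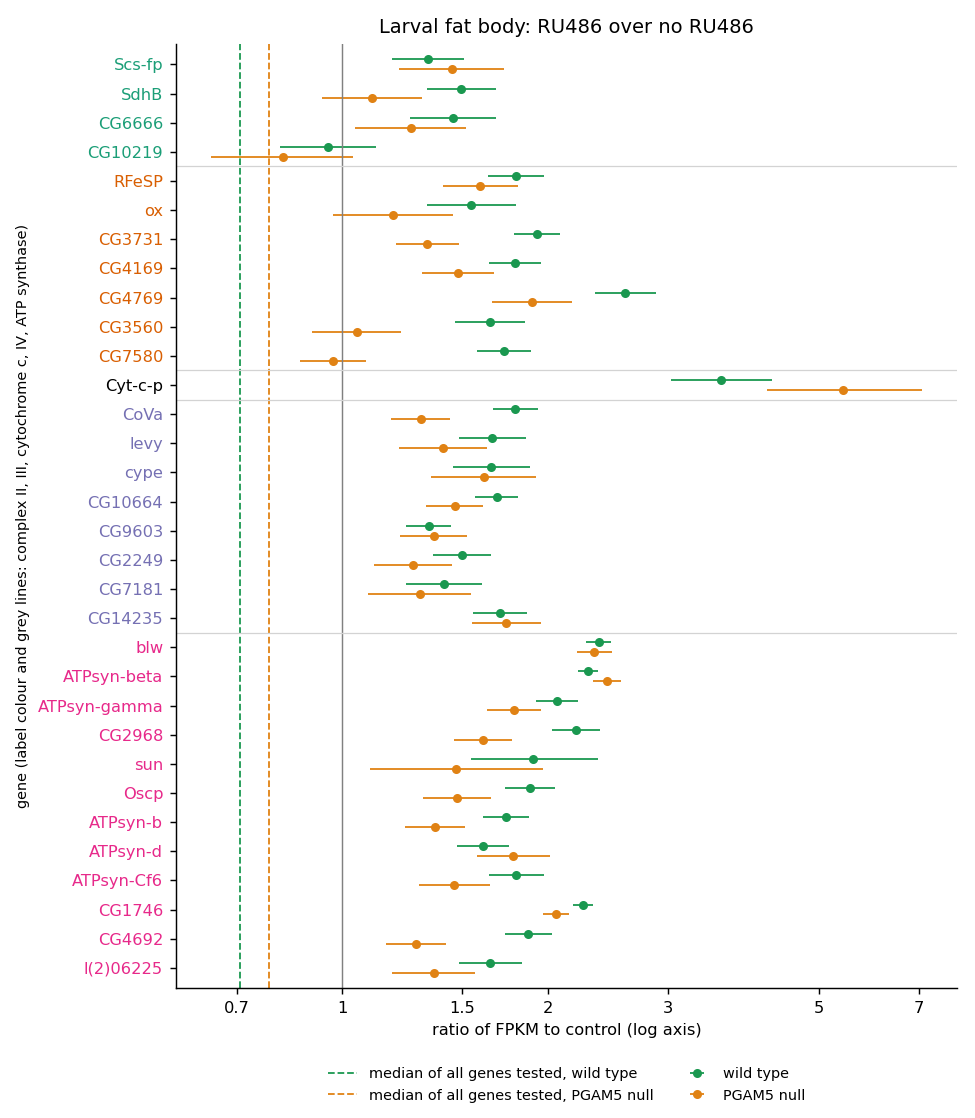
Ratio of FPKM with RU486 to FPKM without in larval fat body, on a log axis, for each of the 32 genes with 95% intervals for counting error, in wild type and in PGAM5 null; dashed lines mark the median ratio of all genes tested (0.707 and 0.782). Nearly all points lie to the right of 1, with Cyt-c-p farthest at 3.59 and 5.42.

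At least 1.5-fold higher with RU486 were 25 genes in wild type, where 7.27% of all genes tested lay, and 11 in PGAM5 null, where 8.72% lay. None was 1.5-fold lower in either, against 45.5% and 34.9% of all genes, and none was at or below 0.5, against 30.5% and 17.5%. The 32 log2 ratios were close together, with an interquartile range of 0.26 in wild type against 1.18 for all genes tested, and 0.34 in PGAM5 null against 0.79.

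Cyt-c-p was the only one of the 32 at least 3-fold higher, in both genotypes, where 0.861% and 1.55% of all genes tested lay. It was at 56.4 FPKM without and 202 with RU486 in wild type, and at 27.6 and 149 in PGAM5 null. Both RU486 libraries were above both libraries without it, an order that was not counted across all genes. The ratios were 3.59 (3.04 to 4.26) and 5.42 (4.19 to 7.07). The untreated PGAM5 null value was the lowest level of Cyt-c-p in any library.

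High ratios in both genotypes were also those of cytochrome c1 and of several ATP synthase genes. CG4769 was at 66.6 and 173 FPKM in wild type and 57.2 and 108 in PGAM5 null, ratios of 2.60 (2.35 to 2.88) and 1.90 (1.65 to 2.17). blw was at 212 and 504 FPKM in wild type and 150 and 352 in PGAM5 null, ratios of 2.38 and 2.34. ATPsyn-beta was at 384 and 880 FPKM in wild type and 264 and 643 in PGAM5 null, ratios of 2.29 and 2.44. For each of these genes both RU486 libraries were above both libraries without the drug. That order was not particular to them: CoVa and levy, for example, had it too, while CG7580 and CG10219 did not. Its share among all genes was not counted. The gamma subunit of F1, ATPsyn-gamma, gave 2.06 and 1.79, the F1 delta subunit, CG2968 (ATPsyndelta), 2.20 and 1.61, the F1 epsilon subunit, sun, 1.91 and 1.47, and the ring gene CG1746 2.25 and 2.06, wild type first.

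Complex IV ratios in wild type ran from 1.34 for CG9603 to 1.79 for CoVa. Between these lay CG14235 at 1.70, CG10664 at 1.68, levy at 1.66, cype at 1.65, CG2249 at 1.496 and CG7181 at 1.41. In PGAM5 null the 8 ratios ran from 1.27 for CG2249 to 1.74 for CG14235. The stalk genes ATPsyn-b and ATPsyn-d gave 1.74 and 1.61 in wild type and 1.37 and 1.78 in PGAM5 null.

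Complex II had the smallest median ratio of the complexes in both genotypes, though not every gene of it lay below those of the others. In wild type its median log2 ratio was 0.47, against 0.83 for complex III, 0.72 for complex IV and 0.92 for the ATP synthase, and in PGAM5 null it was 0.24, against 0.41, 0.47 and 0.62. CG10219, the membrane anchor SdhD, was at 58.6 FPKM without and 55.8 with RU486 in wild type, and at 48.0 and 39.3 in PGAM5 null. It had the lowest ratio in both genotypes, 0.953 (0.810 to 1.12) and 0.819 (0.643 to 1.04), and both intervals hold 1. The other low ratios were 1.33 for Scs-fp and 1.34 for CG9603 in wild type, and 0.969 for CG7580 and 1.05 for CG3560 in PGAM5 null. The interval lay above 1 for 31 genes in wild type and for 27 in PGAM5 null, and below 1 for none. The 76 fragments estimated behind Cyt-c-p in the untreated PGAM5 null library were the fewest behind any of these values.

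The RU486 ratio was larger in wild type than in PGAM5 null for 26 of the 32 genes, and for 30 when each ratio was divided by that of the median gene. All these ratios rest on the same larval libraries, and the share of all genes with the larger ratio in wild type was not counted. Cyt-c-p was one of the 6 with the larger unscaled ratio in PGAM5 null. CG7580 and CG3560, small subunits of complex III, showed the largest excess of wild type over PGAM5 null. Their ratios were 1.73 and 1.64 in wild type and 0.969 and 1.05 in PGAM5 null. The other small subunit, ox, had 1.54 and 1.19. CG7580 was at 232 and 401 FPKM in wild type and at 303 and 293 in PGAM5 null, so that its untreated level was the higher one in PGAM5 null. The 4 core and redox subunits of that complex ran from 1.79 to 2.60 in wild type and from 1.33 to 1.90 in PGAM5 null. With 1 library per condition, the difference between genotypes was not tested.

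Other tissues' markers moved in the same libraries. The salivary glue genes went from 135167 to 59440 FPKM with RU486 in wild type and from 168872 to 38057 in PGAM5 null, all 6 detected in every larval library. The 8 gut markers went from 7245 to 6132 FPKM in wild type and from 6578 to 611 in PGAM5 null. The 7 testis markers went from 557 to 73.6 FPKM in wild type and from 454 to 337 in PGAM5 null. The 12 muscle markers went from 431 to 263 FPKM in wild type and from 271 to 509 in PGAM5 null. The 6 larval fat body markers went from 147466 to 131857 FPKM and from 147412 to 192531. Lsp1beta, a larval serum protein gene, was listed at 0 in the wild-type library with RU486 and at 29917 FPKM in that without. Without it the sums went from 117549 to 131857 FPKM in wild type and from 123178 to 142665 in PGAM5 null. The 6 markers did not move together. In wild type 2 were at least 1.5-fold higher and 2, with Lsp1beta, lower, and in PGAM5 null 3 were higher and 1 lower. Fbp1, lower in both, went from 27701 to 13688 FPKM in wild type and from 31342 to 10804 in PGAM5 null. The part of these tissues in the result was not tested. FPKM are shares of a whole library. With the 10 most abundant genes of each library left out, the median log2 ratio of the subunits was 0.63 in wild type and 0.41 in PGAM5 null.

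Genes near the list followed it in part. Of 22 other subunits and paralogs of complexes II to V, 18 were tested in wild type: 3 were at least 1.5-fold higher, namely CoVb (135 and 230 FPKM), CG14482 (149 and 229) and CG3321 (206 and 326), and the other 15 were at least 2-fold lower. In PGAM5 null 16 were tested, 3 at least 1.5-fold higher and 9 at least 1.5-fold lower, of which 2 were at least 2-fold lower. Of all genes tested, 7.27% and 8.72% were at least 1.5-fold higher, wild type first. At least 1.5-fold lower were 45.5% and 34.9% of all genes, and at least 2-fold lower 30.5% and 17.5%. Testis markers were lower in the same libraries, at least 2-fold for all 6 tested in wild type and for none in PGAM5 null. Of the nuclear complex I genes, 14 of 34 were at least 1.5-fold higher in wild type and 7 of 33 in PGAM5 null, with medians of 0.55 and 0.20. Of 14 TCA cycle enzymes, 5 and 6 were at least 1.5-fold higher and none lower, and kdn went from 27.3 to 71.5 FPKM and from 20.1 to 50.2. sesB, the ADP/ATP exchanger, went from 233 to 607 FPKM and from 129 to 441. TFAM, which packages and transcribes mitochondrial DNA, was at 22.9 and 17.4 FPKM in wild type and at 21.7 and 20.5 in PGAM5 null.

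In adult fat body the question was whether RU486 given to larvae left a mark at day 7. It was small for these genes. In wild type 30 of 32 were higher, with a median log2 ratio of 0.16 against −0.08 for the 5015 genes tested, and all ratios lay between 0.893 and 1.26. In PGAM5 null 20 were higher and 12 lower, with a median of 0.04 against −0.06 for 4506 genes and ratios from 0.856 to 1.18. Among all genes tested, 41.1% were higher in wild type and 40.5% in PGAM5 null. None of the 32 was 1.5-fold higher or lower in either genotype. Of all genes tested, 2.21% were at least 1.5-fold higher and 14.3% lower in wild type, and 2.86% and 7.88% in PGAM5 null. At 3-fold higher stood 0.319% and 0.399% of all genes and at or below 0.5 stood 9.01% and 4.77%, wild type first, and again none of the 32.

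The ATP synthase stood highest in wild-type adults, as it did in larvae. Its 12 genes were all higher with RU486, with a median log2 ratio of 0.26, against 0.15 for complex IV, 0.09 for complex III and −0.05 for complex II. Oscp, which joins the F1 head to the stalk, was at 406 FPKM without and 512 with RU486 in wild type and at 454 and 474 in PGAM5 null. The wild-type ratio, 1.26 (1.18 to 1.35), was the largest of that comparison, and the next were ATPsyn-beta at 1.253 and CG2249, subunit 7C of complex IV, at 1.22. The lowest were Scs-fp at 0.893, SdhB at 0.925 and CG10219 at 1.01. In PGAM5 null the highest were sun, F1 epsilon, at 1.18, CG4692 at 1.17 and CG10219 at 1.13, and the lowest were Cyt-c-p at 0.856, ATPsyn-beta at 0.903 and SdhB at 0.925. The interval held 1 for 11 genes in wild type and for 24 in PGAM5 null. The 8 gut markers went from 5768 to 61.9 FPKM in wild type and from 50.6 to 211 in PGAM5 null, and the ovary markers from 19.1 to 31.5 and from 52.2 to 993. Of the ovary markers, only osk reached 10 FPKM without RU486 in wild type, and it went down, from 12.6 to 1.90 FPKM. The part of the gut and ovary markers in these small ratios was not tested. Of 33 complex I genes tested and 14 TCA cycle enzymes, none was 1.5-fold higher or lower in either genotype.

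Loss of PGAM5 without RU486 was compared at each stage against the same untreated wild-type libraries that the RU486 comparisons used. In larvae 28 of the 32 genes were lower in PGAM5 null, with a median log2 ratio of −0.19. The 5225 genes tested had a median of −0.15, and 35.3% of them were higher in PGAM5 null. Of the 32, 11 lay above the median gene. Cyt-c-p, at 56.4 FPKM in wild type and 27.6 in PGAM5 null, was the only one at or below 0.5, with a ratio of 0.489 (0.368 to 0.645), and the only one 1.5-fold lower. Of all genes tested 5.09% were at or below 0.5 and 14.9% were 1.5-fold lower. None of the 32 was 1.5-fold or 3-fold higher, against 5.47% and 0.536% of all genes. Scs-fp at 0.680 and CG9603 at 0.685 were next lowest, followed by ATPsyn-beta at 0.687. CG7580 at 1.31 (1.18 to 1.45), CG3560 at 1.14 and CG2968 at 1.07 were highest, and the interval of CG7580 was the only one wholly above 1.

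In adults the genes divided evenly, with 16 higher and 16 lower in PGAM5 null and a median log2 ratio of −0.01, against −0.10 for 5015 genes. Among those 5015 genes, 39.2% were higher. The following counts are again of the 32. None was 1.5-fold higher or lower, where 5.78% and 21.3% of all genes lay, and none was 3-fold higher or at or below 0.5, where 0.120% and 14.9% lay. CG9603 was lowest, at 632 FPKM in wild type and 472 in PGAM5 null, a ratio of 0.746 (0.694 to 0.803). CG10219 at 0.822 and Scs-fp at 0.833 followed. The highest were ATPsynG at 1.19 and CG14235, subunit 6B of complex IV, at 1.17, then Oscp at 1.12. All 4 complex II genes were lower in PGAM5 null at both stages, with median log2 ratios of −0.27 in larvae and −0.24 in adults. Gut markers summed to 5768 FPKM in the wild-type adults and 50.6 in PGAM5 null, and muscle markers to 546 and 1126, and their part was not tested.

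**Figure D5:**
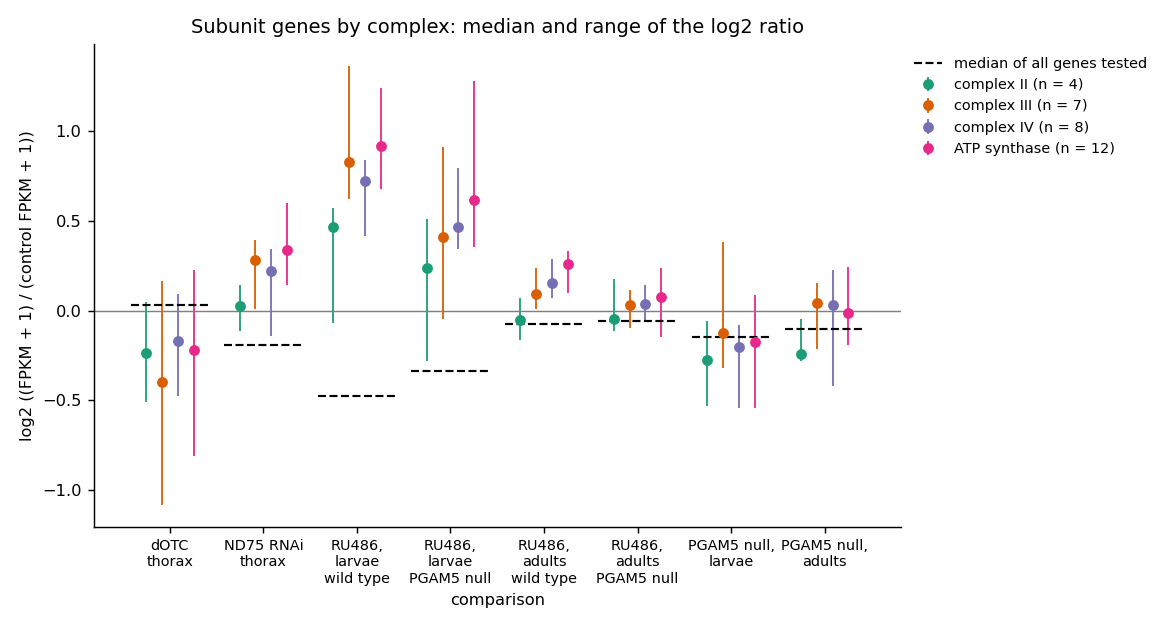
Median (point) and range (line) of the log2 ratio of FPKM with 1 added, for the genes of each complex (cytochrome c is not drawn) in each of the 8 comparisons, with a dashed bar at the median of all genes tested. Within each complex the larval RU486 medians are the highest, from 0.47 to 0.92 in wild type and from 0.24 to 0.62 in PGAM5 null, with complex II lowest and the ATP synthase highest in both.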

How the data were processed

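The authors made TruSeq libraries from tissue in Trizol, sequenced them on a MiSeq and computed FPKM with the Tuxedo suite on genome release 5.2. The submitters' processing notes name Bowtie, TopHat and Cufflinks, with versions not given in the sources used here. The deposited FPKM values of 15603 genes in 3 tables were used as they stand, and no counts were used.

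Ratios were taken within a table between single libraries. Genes with 10 FPKM or more in the control were tested. Folds counted were those of the study (3-fold higher, or 0.5 and below) and 1.5-fold. No test across samples was run: each condition has 1 library, and 15 pooled animals are not replicates. A fit over the fat body libraries of both genotypes together was not tried. Low FPKM values fall on steps of 1 fragment, and their spacing in 8091 genes with 1 transcript gave the fragments behind each value. Of such values 73.5% to 82.5% lay within 0.1 of a whole fragment. From them came exact conditional binomial 95% intervals, which cover counting error only. Transcript lengths came from a later annotation, BDGP6, and no coordinates were used. Promoter and protein sequences were not used here.

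The 32 genes and all other lists were chosen with earlier results of these data known. All 32 were to be described, with the 3 highest and 3 lowest of every comparison named, at most 4 genes of each other list, and Pgam5 and ND75 as checks; other genes were chosen after their values were seen. Of 7 respiratory assembly factors, 5 were tested in thorax and 3 in fat body. Of those tested, 0 were at least 1.5-fold higher and at most 1 was lower in any comparison. The 5 hemocyte markers summed to at most 122 FPKM in a library. Alternatives varied the pseudocount, the minimum, the fold and the scaling. Scripts were tested on simulated data. The software was Python 3.11.15 with pandas 2.3.3, numpy 2.4.6, matplotlib 3.10.9 and scipy 1.17.1.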

Additional observations from a re-analysis of the deposited data

Results flagged for a closer look

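In adult fat body, 3 of the 32 genes moved in opposite directions with RU486 in wild type and in PGAM5 null while both counting intervals stayed clear of 1. ATPsyn-beta had a ratio of 1.253 in wild type and 0.903 in PGAM5 null, 1.39 times apart. Cyt-c-p had ratios of 1.092 and 0.856, 1.28 times apart. CG4169 had ratios of 1.11 and 0.936, 1.19 times apart. The PGAM5 null interval of CG4169 reached up to 0.998. The difference between genotypes was not tested, since each ratio rests on 1 pair of libraries. In larvae none of the 32 did the same. How many of all genes moved this way was not counted, so it is not known whether 3 of 32 is unusual.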

How the results depend on the processing

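Each alternative changed 1 choice, and 161 of 216 recomputed values stayed within 0.1 log2 for a median or within 1.5 times for a count. Scaling to the median gene moved the median subunit log2 ratio to 0.47 with ND75 RNAi, to 1.29 and 0.88 with RU486 in wild-type and PGAM5 null larvae and to −0.037 in untreated PGAM5 null larvae. Scaling to the upper quartile gave 0.41, 1.35 and 0.76 for the first 3 and 0.36 for RU486 in wild-type adults. Leaving out the 10 most abundant genes of each library gave 0.63 and 0.41 for the larval RU486 comparisons. For PGAM5 null adults the median turned from −0.0079 to 0.096, 0.21 and 0.080 under these 3 scalings.

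Scaled to the median gene, the medians of complexes II, III, IV and the ATP synthase became 0.23, 0.48, 0.42 and 0.54 with ND75 RNAi, 0.96, 1.33, 1.22 and 1.41 with RU486 in wild-type larvae, and 0.59, 0.76, 0.82 and 0.97 in PGAM5 null larvae. In untreated PGAM5 null larvae they became −0.13, 0.025, −0.048 and −0.022, the complex III sign having turned, and in untreated PGAM5 null adults −0.14, 0.15, 0.14 and 0.091, the ATP synthase sign having turned. Complex II turned to 0.027 and 0.010 with RU486 in wild-type and PGAM5 null adults.

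With a control minimum of 100 FPKM, Cyt-c-p dropped out and 0 genes were 3-fold higher with RU486 in either larval genotype and 0 were at or below 0.5 or 1.5-fold lower in untreated PGAM5 null larvae. Scaling to the median gene and to the upper quartile raised the genes at least 1.5-fold higher to 5 and 4 with ND75 RNAi and to 28 and 25 with RU486 in PGAM5 null larvae. They raised those 3-fold higher to 6 and 7 in wild-type larvae, and median scaling raised them to 2 in PGAM5 null larvae. Under both, 0 genes were at or below 0.5 in untreated PGAM5 null larvae. With genes counted from 25% above or 20% below the control, 12 genes were lower with dOTC, 10 higher with ND75 RNAi, 27 higher with RU486 in PGAM5 null larvae, 2 higher with RU486 in wild-type adults, 1 higher and 8 lower in untreated PGAM5 null larvae and 1 lower in untreated PGAM5 null adults.

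A count of promoter motifs in a shorter window was not run. No paired analysis was possible because the labels number no replicates of a condition, and libraries with and without RU486 were not tested as pairs across genotypes or stages. No library was left out. Each value rests on at least 76 estimated fragments, but counting error limits what the ratios near 1 can show. The interval held 1 for 24 genes with RU486 in PGAM5 null adults and for 11 in wild-type adults. In untreated PGAM5 null larvae and adults it held 1 for 13 and 15 genes. With RU486 in wild-type and PGAM5 null larvae it held 1 for 1 and 5 genes, and in each thorax comparison for 3. Differences between animals, dissections and libraries were not measured.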
